A study of Rattus norvegicus with 24 samples.

Results

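The cell cycle and replication genes examined here are 32 genes that act in DNA replication, chromosome segregation and the cyclin-kinase switches between them. They were chosen by name, as the rows of both count tables whose gene IDs match those 32 rat symbols, and all 32 were found among the 15319 genes measured. Liver RNA of 24 Sprague-Dawley rats, an outbred stock, was sequenced in bulk, with 1 library per animal and 6 animals in each of 4 groups. Males and females were each divided into sham-exposed and PCB 52-exposed animals. The compound, a polychlorinated biphenyl and so one of a class of long-lived industrial chemicals, was breathed through a nose-only system as HEPA-filtered air drawn over coated glass beads at 12 L/min, 4 hours a day for 28 days. All animals arrived at 28 days of age, acclimated for 8 days and were assigned to groups at random, and exposure began at 42 days in females and 39 days in males. The dose and what the sham animals breathed are not given in the sources used here. Sex therefore goes together with the age at the start and with the count table, and these cannot be told apart.

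Most hepatocytes of a grown animal are quiescent, while the liver of an adolescent rat is still growing, and cells that divide pass through licensing, replication and mitosis in order. The MCM proteins form the ring helicase that is loaded onto origins with the help of Cdc6, PCNA clamps the polymerases to DNA, and ribonucleotide reductase (Rrm1, Rrm2) and thymidylate synthase (Tyms) supply the nucleotides. D-type and E-type cyclins carry a cell into replication, cyclins A and B with Cdk1 carry it into mitosis, and the Aurora and Polo kinases, Bub1, Bub1b and Cdc20 time the separation of the chromosomes. Mki67 encodes the Ki-67 antigen, the standard histological mark of a cycling cell, and Top2a the topoisomerase that untangles replicated DNA. In a bulk sample, fewer cycling cells and less RNA per cycling cell cannot be told apart.

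Promoter sequences of 3 members are printed with the sequence words they carry. They were chosen as the members most correlated with Mki67 in their role that had a stretch clear of other annotated genes. E2F factors are known to act at replication gene promoters, and the CHR element and CCAAT boxes are known from promoters of mitosis genes. The words searched, on both strands, were for E2F TTTCGCG, the form TTTGGCG, the form TTTCCCG and the form TTTGCCG, then TTTGAA for the CHR and, for the CCAAT box, its own 5 letters. RefSeq promoter entries (build GRCr8, 250 bases before to 50 after the annotated start) were matched for 24 of the 32 members. The stretches below lie before the start, read 5′ to 3′ on the strand of the gene, with the words in capitals and in reverse complement where they lie on the opposite strand.
Mcm6: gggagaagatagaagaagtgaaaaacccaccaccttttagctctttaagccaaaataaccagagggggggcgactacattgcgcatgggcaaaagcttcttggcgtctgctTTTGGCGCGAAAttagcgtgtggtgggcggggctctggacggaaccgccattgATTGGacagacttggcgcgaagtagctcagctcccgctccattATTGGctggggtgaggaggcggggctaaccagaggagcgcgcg
Cdc20: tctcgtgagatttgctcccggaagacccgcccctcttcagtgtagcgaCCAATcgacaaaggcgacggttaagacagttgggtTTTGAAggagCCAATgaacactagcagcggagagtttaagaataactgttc
Top2a: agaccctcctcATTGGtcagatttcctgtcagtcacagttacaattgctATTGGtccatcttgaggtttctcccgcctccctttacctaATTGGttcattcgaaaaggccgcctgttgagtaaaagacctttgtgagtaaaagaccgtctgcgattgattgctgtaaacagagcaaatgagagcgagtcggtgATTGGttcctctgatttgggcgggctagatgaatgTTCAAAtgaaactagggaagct
The Mcm6 stretch is chr13:42404353-42404602 on the minus strand, and it holds overlapping E2F words that begin 139 and 134 bases before the start, with CCAAT words at 86 and 43 bases. The Cdc20 stretch is chr5:137255800-137255933 on the minus strand, with a CHR word at 51 bases and CCAAT words at 86 and 41 bases before the start. The Top2a stretch is chr10:84473094-84473343 on the minus strand, with a CHR word at 22 bases and 4 CCAAT words at 239, 201, 161 and 57 bases before the start.

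Over the 300-base windows, an E2F word was present in 8 of the 24 members' promoters (33.3%), against 9.6% of the 12198 promoters of genes in the count tables and 7.08% of all 27457 promoters in the RefSeq table. A CHR word was present in 12 of 24 (50%), against 12.8% and 18.1%. A CCAAT word was present in 18 of 24 (75%), against 37.5% and 37.7%. The E2F words lay in 5 of 5 licensing and helicase genes with an entry (Mcm2, Mcm3, Mcm5, Mcm6 and Mcm7) and otherwise in Tyms, Cdk1 and Birc5. The CHR word lay in 4 of 5 spindle genes, 3 of 5 mitotic kinase and checkpoint genes, and both Mki67 and Top2a, but in 1 of the 5 licensing genes (Mcm2). A match is a description of letters, and no match says only that these letters are absent from this window.

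Libraries held 6994832 to 9185511 counts. Animals 13 to 16, all exposed, stand at the high end of a gene expression axis that the labels do not name (scores of 8.20 to 12.71, against -7.09 to 6.98 in the other 20 libraries), and values without them are given beside the main results that they move. Hepatocyte marker genes summed to 143127 to 186443 counts per 1000000 library counts (CPM) in every library, and none of them was at 0 throughout. Overlapping transcripts limit some members, since how reads were counted, with regard to strand as well, is not given in the sources used here. In GRCr8, Kif11 overlaps Ide, Aurka overlaps Fam210b, Nusap1 overlaps Ndufaf1, Plk1 overlaps Ern2, Rrm2 overlaps Cys1, and Ccne2 overlaps Ints8. Reads of each pair could not be told apart.

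The members were present at low levels. Ccnd1, the D-type cyclin gene, held 13502 counts over the 24 libraries, while Ccnb2 held 66, Cdc6 76, Bub1b 80, Aurkb 98 and Cdk1 116. No transcript lengths were used, so these counts are not an order of expression between genes. Every member was detected in every group: the lowest group sum was 10 counts, and a pooled level of 0.211 CPM compares with a floor (3 counts over a group) of at most 0.0641 CPM. The filter on low counts was passed by 19 members in each sex alone and by 21 in the fit of all 24 libraries. The 11 that never passed were Cdk1, Ccnb1, Ccnb2, Ccna2, Bub1b, Aurkb, Plk1, Nusap1, Cenpf, Cdc6 and Prc1. Rrm2 was below the filter in both single-sex fits, Ccne1 in females and Cdc20 in males.

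**Figure D1:**
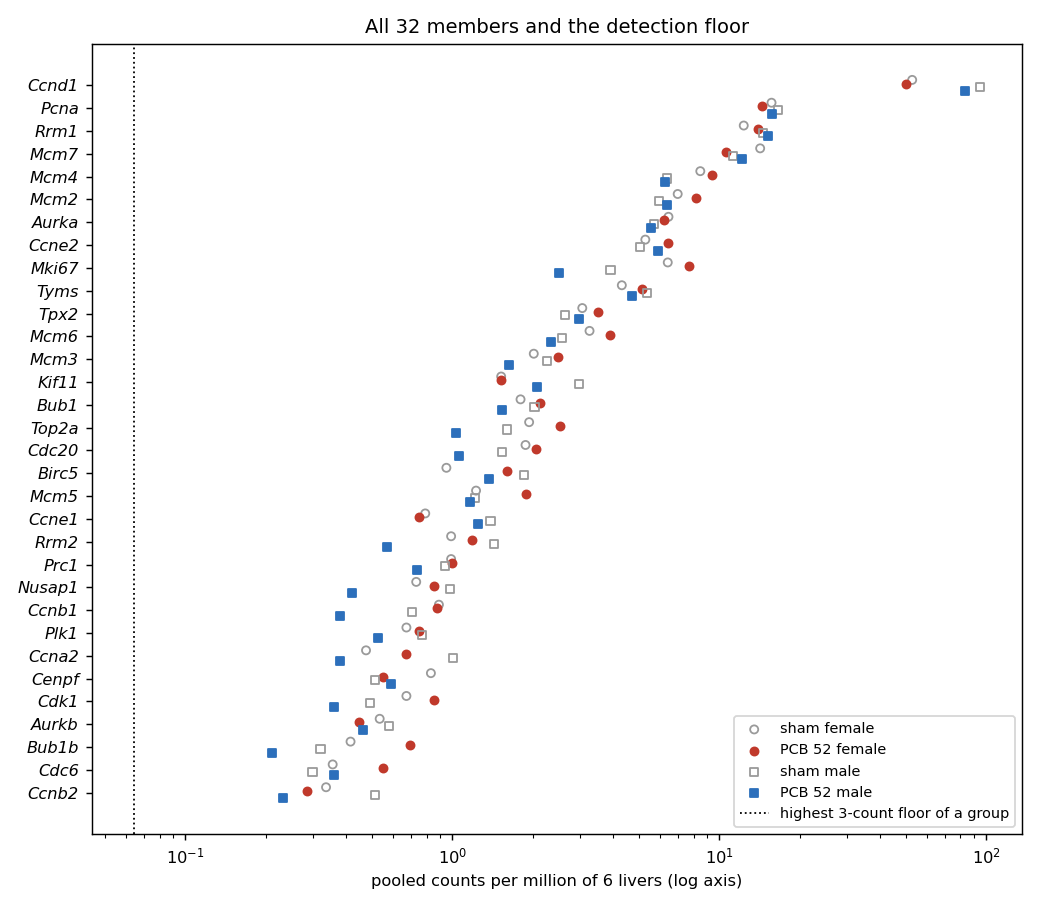
Pooled level of each of the 32 members in the 6 livers of each group, in CPM on a log axis, with open symbols for sham and filled symbols for PCB 52, circles for females and squares for males. All lie to the right of the dotted line, the highest 3-count floor of a group (0.0641 CPM).

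Spread among animals of a group, set against counting error, differed between members. For Ccnd1 the variance of the counts within groups was 71.7 times that of counting alone (chi-square per degree of freedom, 20 degrees of freedom). Mki67 stood at 5.26, Ccne2 at 4.27 and Top2a at 3.36, and the other 28 members lay between 0.865 (Mcm2) and 2.94 (Ccne1), with a median of 1.88. This ratio grows with the count, so it does not rank the members by relative spread. A measure of relative spread is edgeR's biological coefficient of variation, here from the fit of all 24 libraries. It was 0.41 for Ccne1, 0.39 for Top2a, 0.35 for Ccnd1, 0.30 for Mki67, 0.25 for Ccne2 and 0.10 for Mcm2.

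No member passed the test between exposed and sham animals in either sex. In females the 19 members tested gave 0 calls at an adjusted p under 0.05 with edgeR's quasi-likelihood test, where 0% of the 10251 genes tested were called. DESeq2 called 13 genes and limma-voom 0, no member among them. In males 0 of 19 members were called, and 0% of 10180 genes. There DESeq2 called 1 gene, which was no member, and limma-voom called 0. At an unadjusted p under 0.05, 2 members were higher and 1 lower in exposed females, where 4.64% of all genes were higher and 5.32% lower. In exposed males 0 members were higher and 1 lower, against 2.9% and 2.85% of all genes. The signs leaned opposite ways: the log2 fold change was above 0 for 15 of 19 members in females (50.7% of all genes) and for 6 of 19 in males (51% of all genes). The members' median log2 fold change was 0.23 in females and -0.12 in males, beside medians of 0.0032 and 0.0034 over all genes tested. The lean in females was much smaller without animals 14 and 16, the 2 females among animals 13 to 16: the median was 0.06, with 13 of 20 members above 0 (50% of all genes). With the library axis as a covariate the female median was 0.12. In males the median was -0.10 without animals 13 and 15, with 7 of 21 members above 0 (49.6% of all genes), and -0.30 without the low-count filter, where all 32 members entered. Members are measured in the same livers and are not replicates, so these counts are a description.

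**Figure D2:**
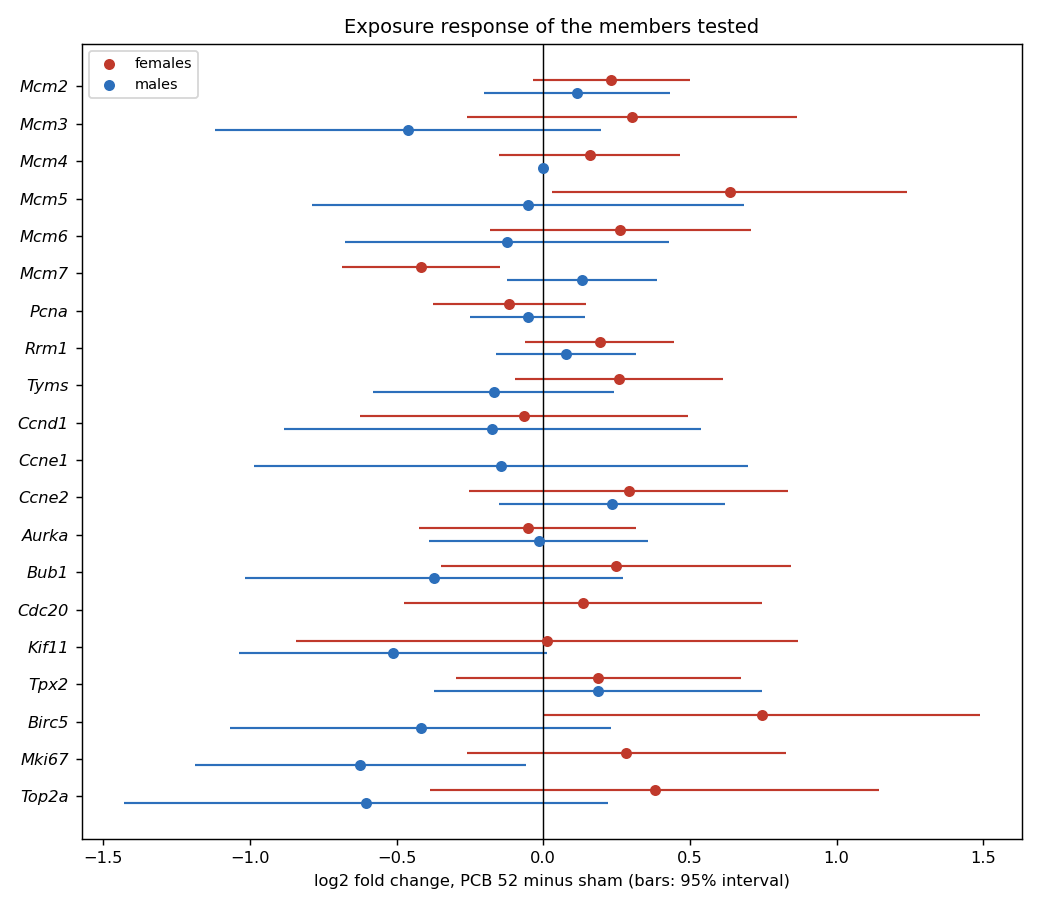
Log2 fold change of PCB 52 against sham with its 95% interval for each member tested, in females (red) and males (blue); Mcm4 in males was at 0.00 and has no interval drawn, since the test statistic was too near 0 to give one. No member passed the adjusted test; the female interval of Mcm7 and the male interval of Mki67 lie below 0, and the female intervals of Mcm5 and Birc5 lie above 0.

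With all animals Mcm7, a helicase subunit, had the smallest p of the members in females. Its level ran from 9.90 over a median of 14.2 to 17.5 CPM in sham females and from 8.37 over 10.8 to 12.0 CPM in exposed females. In males it ran from 9.08 over 11.3 to 14 CPM in sham and from 10.5 over 12.3 to 13.2 CPM in exposed animals. All 6 exposed females lay below the mean of the sham females, yet the ranges overlapped because the sham female with the lowest value sat among the exposed. The log2 fold change was -0.42 (SE 0.13, unadjusted p = 0.00432, adjusted p = 0.388) in females and 0.13 (SE 0.12, adjusted p = 0.872) in males. Without animals 14 and 16 the female value was -0.35 (SE 0.14, unadjusted p = 0.0235, adjusted p = 0.822). Mcm7 hosts the microRNA genes Mir25, Mir93 and Mir106b, which had at most 2 counts in any library.

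Mcm5, another subunit of the same ring, had the opposite sign in females. Its range was 0.627, 1.22 and 1.69 CPM (lowest, median, highest) in sham females and 1.46, 1.67 and 2.83 CPM in exposed females, with 6 of 6 exposed females above the sham mean. The log2 fold change was 0.64 (SE 0.29, unadjusted p = 0.0405, adjusted p = 0.486). In males the values were 0.389, 1.33 and 1.85 CPM in sham and 0.519, 1.25 and 1.66 CPM in exposed animals, which overlapped nearly throughout. Mcm2 (0.23, SE 0.13), Mcm3 (0.30, SE 0.27), Mcm4 (0.16, SE 0.15) and Mcm6 (0.26, SE 0.21) were also above 0 on the log2 scale in females. In males Mcm3 was at -0.46 (SE 0.31), Mcm2 at 0.11, Mcm4 at 0.00 and Mcm6 at -0.12. Without animals 14 and 16 Mcm4 was at -0.02 (SE 0.15) and Mcm5 at 0.54 (SE 0.32, unadjusted p = 0.108) in females.

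The replication clamp gene Pcna varied little. It spanned 12.7, 15.9 and 18.2 CPM in sham females and 11.9, 13.8 and 18.4 CPM in exposed females. In males it spanned 14.7, 16.6 and 18.3 CPM in sham and 14.7, 15.5 and 17.7 CPM in exposed animals. The groups overlapped in both sexes, with log2 fold changes of -0.12 (95% interval -0.38 to 0.14) in females and -0.05 (-0.25 to 0.14) in males. Rrm1, the large subunit of ribonucleotide reductase, stood at 10.1, 12.4 and 15.2 CPM in sham females against 12.0, 14.1 and 15.8 CPM in exposed females (log2 fold change 0.19, SE 0.12). In males it stood at 12.3, 14.3 and 18.3 CPM against 13.1, 15 and 18.2 CPM (0.08, SE 0.11). Tyms, which makes thymidylate, ran from 3.27 over 4.13 to 5.96 CPM in sham females and from 4.15 over 5.27 to 5.88 CPM in exposed females (0.26, SE 0.17). In males it ran from 3.07 over 5.74 to 6.88 CPM in sham and from 3.51 over 4.75 to 5.99 CPM in exposed animals (-0.17, SE 0.20). The ranges of both genes overlapped in both sexes. The small partner of Rrm1, Rrm2, whose level is known to follow the replication phase, was much lower in counts, 202 over all libraries. It ran from 0.251 over 1.05 to 1.41 CPM in sham females and from 0.692 over 1.23 to 1.70 CPM in exposed females. In males it ran from 0.736 over 1.58 to 2.21 CPM in sham and from 0.125 over 0.600 to 1.07 CPM in exposed animals. The exposed females were near the sham females, and the exposed males had the lowest median of the 4 groups. With DESeq2 the log2 fold change of Rrm2 in males was -1.31 (SE 0.48, unadjusted p = 0.00673, adjusted p = 0.9995). Without animals 13 and 15 it passed the filter, but only through the sham males, since no exposed male held more than 8 counts. The edgeR value there was -1.30 (SE 0.47, unadjusted p = 0.0132, adjusted p = 0.9987). Because of how it entered, this value is no separate support for a lower level in exposed males.

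The G1 cyclin gene Ccnd1 spread widely among animals, and no exposure difference was seen. Sham females ran from 27.0 over 52.4 to 73.0 CPM and exposed females from 30.7 over 50.2 to 74.0 CPM. Sham males ran from 65.4 over 95.3 to 117 CPM and exposed males from 36.0 over 79.5 to 149 CPM, the widest range of the 4 groups. The log2 fold change was -0.07 (95% interval -0.63 to 0.49) in females and -0.17 (-0.89 to 0.54) in males, and in males it was 0.04 without animals 13 and 15. The E-type cyclin gene Ccne2 had 0.29 (SE 0.26) in females and 0.23 (SE 0.18) in males. Its relative Ccne1 spanned 0.341, 0.732 and 1.51 CPM in sham females and 0.243, 0.591 and 1.93 CPM in exposed females. In males it spanned 0.491, 1.23 and 2.29 CPM in sham and 0.401, 1.27 and 2.00 CPM in exposed animals (-0.15, SE 0.40, and 0.24, SE 0.37, without animals 13 and 15), and the groups overlapped in both sexes.

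The proliferation marker Mki67 had the lowest log2 value of the 19 members tested in males, but it did not pass. Rrm2, with a lower value by DESeq2, was not among those 19. Sham males spanned 2.09, 3.75 and 6.51 CPM and exposed males 1.69, 2.27 and 4.03 CPM. Sham females spanned 2.89, 6.96 and 10.1 CPM and exposed females 5.05, 7.94 and 10.4 CPM. In males 5 of 6 exposed animals lay below the sham mean, and the ranges overlapped in both sexes. The log2 fold change was -0.62 (SE 0.27, unadjusted p = 0.0321, adjusted p = 0.829) in males and 0.28 (SE 0.26, adjusted p = 0.732) in females. Without animals 13 to 16 it was -0.50 (SE 0.30) in males and 0.04 (SE 0.28) in females.

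Top2a had the same signs as Mki67. It spanned 0.502, 1.98 and 2.71 CPM in sham females and 0.968, 2.67 and 4.25 CPM in exposed females (log2 fold change 0.38, SE 0.37, adjusted p = 0.742). Sham males spanned 0.518, 1.53 and 2.73 CPM and exposed males 0.267, 0.949 and 2.08 CPM (-0.60, SE 0.39, adjusted p = 0.833). The ranges overlapped in both sexes, and with so few counts the intervals, -0.39 to 1.15 and -1.43 to 0.22, hold changes in either direction. Without animals 14 and 16 the female value was 0.06 (SE 0.41).

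Of the mitosis genes, Birc5, which encodes survivin of the chromosomal passenger complex, reached an unadjusted p under 0.05 in females. It ran from 0.455 over 1.05 to 1.38 CPM in sham females and from 0.485 over 1.85 to 2.04 CPM in exposed females, and 5 of 6 exposed females lay above the sham mean (log2 fold change 0.75, SE 0.35, unadjusted p = 0.049, adjusted p = 0.501). Without animals 14 and 16 Birc5 was at 1.01 in females (SE 0.33, unadjusted p = 0.00806, adjusted p = 0.811). That was then the smallest p of the members in females. In males it ran from 1.47 over 1.77 to 2.29 CPM in sham and from 0.260 over 1.53 to 2.14 CPM in exposed animals (-0.42, SE 0.31). Kif11, the motor that pushes spindle poles apart, spanned 0.596, 1.64 and 2.05 CPM in sham females and 0.138, 1.45 and 2.57 CPM in exposed females (0.01, SE 0.41, and -0.57, SE 0.44, without animals 14 and 16). In males it spanned 2.33, 2.77 and 4.57 CPM in sham and 1.17, 1.87 and 3.25 CPM in exposed animals (-0.51, SE 0.25, unadjusted p = 0.0558). Without animals 13 and 15 Kif11 was at -0.65 in males (SE 0.27, unadjusted p = 0.0302, adjusted p = 0.9987). Cdc20, an activator of the anaphase-promoting complex, spanned 1.00, 2.10 and 2.50 CPM in sham females and 1.12, 2.19 and 3.09 CPM in exposed females (0.14, SE 0.29, and -0.16, SE 0.32, without animals 14 and 16). In males, where it was below the filter, it spanned 0.777, 1.48 and 2.34 CPM in sham and 0.520, 0.838 and 2.37 CPM in exposed animals. All of these groups overlapped. Aurka, Bub1 and Tpx2 lay between -0.05 and 0.25 in females and between -0.37 and 0.19 in males on the log2 scale.

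The 11 members below the filter are described by their sums and by the fit without the filter. Of their 264 library values, 19 were 0. Cdk1, the kinase that drives mitosis, spanned 0.125, 0.634 and 1.14 CPM in sham females and 0, 0.684 and 2.45 CPM in exposed females. It spanned 0.286, 0.441 and 0.907 CPM in sham males and 0, 0.317 and 0.711 CPM in exposed males. Pooled over a group, exposed females had the higher level for 7 of the 11 and the lower for 4, while exposed males had the higher for 2 and the lower for 9. The ratio of exposed to sham males was lowest for Ccna2, the replication and mitosis cyclin (0.378, from 1.00 to 0.380 CPM), Nusap1 (0.429) and Ccnb2 (0.452). Each of these sums rests on at most 50 counts. In edgeR's fit without the filter all 32 members were tested, and 0 passed in either sex. At an unadjusted p under 0.05, 4 members were lower and 0 higher in exposed males, where 2.74% of genes were lower and 2.48% higher. They were Rrm2 and Mki67 with Ccna2 (-1.36, SE 0.53, adjusted p = 0.836) and Nusap1 (-1.18, SE 0.51, adjusted p = 0.836). DESeq2 also gave 4 lower and 0 higher, with none past the adjusted threshold. In females 1 was higher and 1 lower, where 4.16% and 4.51% of genes were.

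The difference between the responses of the sexes was tested directly. With 0% of 10535 genes called, 0 of 21 members passed, also with DESeq2 and limma-voom. At an unadjusted p under 0.05, 3 members were higher and 1 lower in females minus males, where 0.94% and 1.33% of all genes were. They were Rrm2 (1.54, SE 0.57, unadjusted p = 0.0115), Birc5 (1.16, SE 0.48, unadjusted p = 0.0217) and Mki67 (0.91, SE 0.40, unadjusted p = 0.0302) on the positive side, and Mcm7 (-0.55, SE 0.17, unadjusted p = 0.00379) on the negative side. All 4 had an adjusted p of 1. Without animals 13 to 16 the Mki67 difference was 0.55 (SE 0.44, unadjusted p = 0.228). The other 3 were then at 1.39 (SE 0.63, unadjusted p = 0.0381) for Rrm2, 1.32 (SE 0.40, unadjusted p = 0.00284) for Birc5 and -0.45 (SE 0.20, unadjusted p = 0.0314) for Mcm7. No member passed the adjusted test there either. The average response of both sexes called 0% of genes and 0 members, and no member reached an unadjusted p under 0.05 there, although 15.4% of all genes did. Members' log2 values in that average lay between -0.51 (Rrm2, SE 0.29) and 0.30 (Mcm5, SE 0.23).

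**Figure D3:**
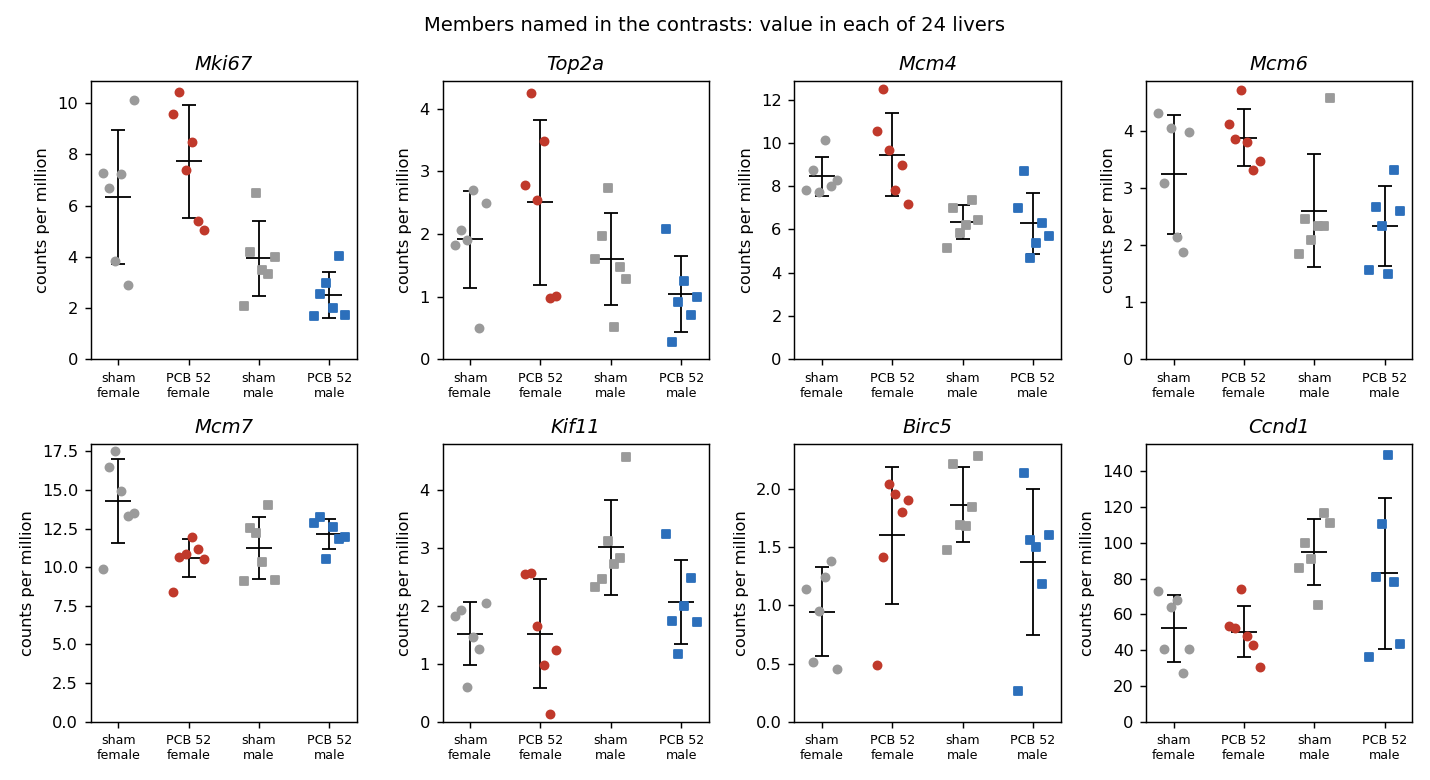
CPM of 8 members in each of the 24 livers by group, with the mean and SD of 6 animals as bars. Mki67, Mcm4 and Mcm6 lie higher in exposed females than in exposed males; Kif11 and Birc5 lie lower in sham females than in sham males, without overlap.

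Between the sexes some members were called, as were 2139 of all 10535 genes tested in sham animals and 2093 in exposed animals. In sham animals 3 of the 21 members tested were lower in females and 0 were higher, where 9.62% of genes were lower and 10.7% higher in females. In exposed animals 4 of 21 were higher in females and 0 were lower, where 10.1% of genes were higher and 9.73% lower. Without animals 13 to 16, 3 of 22 members were lower and 1 was higher in sham females (10.5% and 11.3% of genes), Mcm4 being the added one, and 2 of 22 were higher and 1 lower in exposed females (8.09% and 7.53% of genes). The exposed calls were then Mki67, Mcm4 and, lower in females, Ccne1, which was below the filter in females alone. With all animals no member was called in both contrasts; Mcm4 was without animals 13 to 16. The difference between the sex contrasts is the same quantity as the difference in exposure response above, for which no member passed, so the members are not shown to differ by sex in one exposure state more than in the other.

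Mki67 was higher in exposed females than in exposed males by 1.58 on the log2 scale (SE 0.29, adjusted p = 0.000118), with no overlap between the 6 females and the 6 males. It was called under all 32 alternatives at the 0.05 threshold, with values from 1.22 to 1.79. In sham animals the difference was 0.67 (SE 0.27, adjusted p = 0.0851), and 4 of 6 females lay above the male mean. Mcm4 was likewise higher in exposed females. It spanned 7.18, 9.34 and 12.5 CPM in exposed females against 4.68, 5.98 and 8.69 CPM in exposed males, a log2 difference of 0.55 (SE 0.15, adjusted p = 0.00644), which also passed under all 32 alternatives. In sham animals it spanned 7.75, 8.16 and 10.2 CPM in females and 5.15, 6.33 and 7.38 CPM in males, which did not overlap. The difference of 0.40 (SE 0.15, adjusted p = 0.0575) missed the threshold with all animals. With 1 of the 24 libraries left out at a time, its adjusted p ran from 0.0443 to 0.167. Without animals 13 to 16 together the difference passed (0.39, SE 0.12, adjusted p = 0.0231).

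Mcm6 and Top2a were also called higher in exposed females, but these calls lie near the threshold. Mcm6 spanned 3.32, 3.84 and 4.72 CPM in exposed females and 1.5, 2.47 and 3.32 CPM in exposed males (0.69, SE 0.24, adjusted p = 0.0356). Sham females spanned 1.88, 3.53 and 4.32 CPM and sham males 1.84, 2.33 and 4.57 CPM. The call was lost without animals 13, 14, 17, 18 or 19, each left out alone (adjusted p 0.0566 to 0.0942), while the difference was still 0.59 to 0.69. Top2a differed by 1.23 (SE 0.41, adjusted p = 0.0309), and its call was lost without animals 14, 15, 16, 17, 20, 21 or 23 (adjusted p 0.0510 to 0.0922), with the difference at 1.02 to 1.22. Without animals 13 to 16 together, Mcm6 was at 0.58 (adjusted p = 0.209) and Top2a at 0.99 (adjusted p = 0.177), while Mki67 (1.22) and Mcm4 (0.54) were still called. Ccne1, at -0.75 (SE 0.47, adjusted p = 0.297) with all animals, was then at -1.47 (SE 0.47, adjusted p = 0.0333). It was below the filter in females alone and entered this fit with the males, where it is higher. Animal 16, left out there, held its highest value in exposed females (1.93 CPM, against a median of 0.591).

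At an unadjusted p under 0.05, Cdc20 (0.92, SE 0.36, adjusted p = 0.0696), Rrm2 (0.99, SE 0.43), Mcm5 (0.67, SE 0.31) and Mcm2 (0.32, SE 0.13) were also higher in exposed females than in exposed males. The Mcm2 levels were 7.40, 7.86 and 9.91 CPM in exposed females and 4.95, 6.21 and 7.92 CPM in exposed males. In sham animals they were 6.02, 6.97 and 7.74 CPM in females and 4.79, 6.00 and 7.29 CPM in males. Females thus had the higher median in both states, and neither difference passed the adjusted test. Without animals 13 to 16 Cdc20 was at 0.38 (SE 0.42), Rrm2 at 0.83 (SE 0.52), Mcm5 at 0.61 (SE 0.40) and Mcm2 at 0.28 (SE 0.15). None of them reached an unadjusted p under 0.05 there (lowest 0.0735, for Mcm2).

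The 3 members that were lower in sham females than in sham males were Kif11, Birc5 and Ccnd1. Kif11 differed by -0.99 (SE 0.34, adjusted p = 0.0358) and Birc5 by -0.98 (SE 0.34, adjusted p = 0.0417), each without overlap between the groups. Ccnd1 differed by -0.87 (SE 0.30, adjusted p = 0.0432), with all 6 sham females below the male mean. In exposed animals the same differences were -0.47 (SE 0.35) for Kif11, 0.18 (SE 0.33) for Birc5 and -0.77 (SE 0.30, adjusted p = 0.0826) for Ccnd1. Ide, which overlaps Kif11 and had 507 to 761 counts per library, differed by -0.05 (SE 0.09, adjusted p = 0.771) between sham females and males. Rrm1 was at -0.27 (SE 0.12) and Mcm7 at 0.31 (SE 0.12) in this contrast, with unadjusted p of 0.0259 and 0.0155, and neither passed.

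All 3 of these calls lie near the threshold. Kif11 was lost without animals 5, 6, 8, 9, 10 or 11, each alone (adjusted p up to 0.0962, with the difference at -1.01 to -0.82), and Birc5 without animals 3, 4, 5, 6, 7, 9, 11 or 12 (up to 0.104, at -1.01 to -0.83). Ccnd1 was lost without any 1 of 14 libraries, those of animals 1, 3, 4, 5, 6, 9, 10, 11, 12, 15, 16, 20, 21 and 22 (up to 0.0957, at -0.93 to -0.74).

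**Figure D4:**
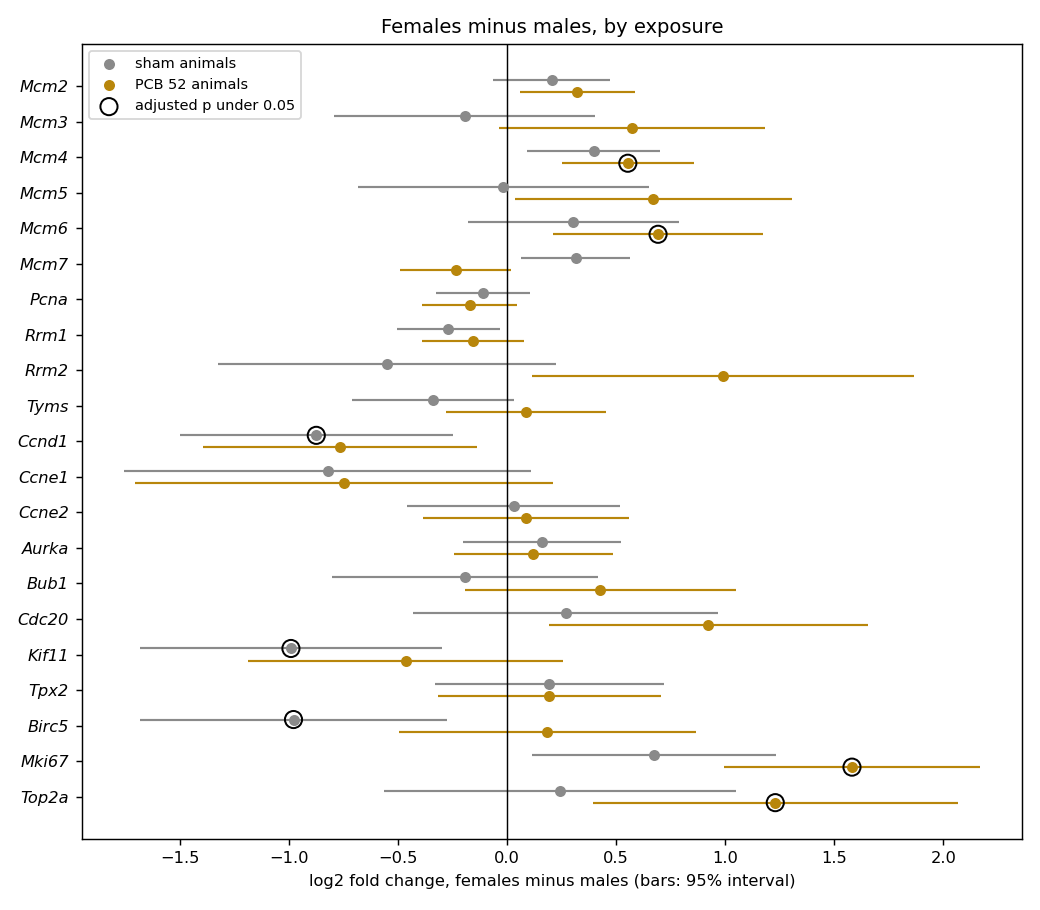
Log2 difference of females minus males with its 95% interval for the 21 members tested, in sham animals (grey) and PCB 52 animals (gold), with rings on those with an adjusted p under 0.05. Rings mark Kif11, Birc5 and Ccnd1 below 0 in sham animals and Mki67, Mcm4, Mcm6 and Top2a above 0 in PCB 52 animals.

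Macrophage markers also differed by sex in the same libraries. Of the 10 Kupffer cell and macrophage markers, 8 were called higher in sham females than in sham males, where 10.7% of all genes were. In exposed animals 7 of these markers were called higher in females, where 10.1% of genes were, and 0 were called lower in either state. Their summed level was 758 to 939 CPM in sham females, 655 to 868 in exposed females, 565 to 681 in sham males and 565 to 670 in exposed males. None of the 10 was at 0 throughout, and their part in the sex differences of the members was not tested. In both states 2 of 6 hepatocyte and 1 of 3 cholangiocyte markers tested were called lower in females. Of 5 T and NK cell markers tested, 1 was called higher in females in both states. Erythroid, stellate, endothelial and mast cell markers had 0 called. Neutrophil and B cell markers were all below the filter.

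Among animals of 1 group, the members did not move as a single block. After group means were removed, 142 of the 210 pairs of the 21 members had a positive Pearson correlation over the 24 libraries, with a median of 0.129 and a range of -0.458 to 0.673. Shared library depth and counting error enter each of these values, and they are given as a description. Mki67 served as the reference for 20 relations.

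Rrm2 and Cdc20 followed Mki67 most closely. For Rrm2, Pearson's r was 0.673 (permutation p = 0.00061, adjusted 0.0102) and Spearman's rho 0.618 (permutation p = 0.00257, adjusted 0.0257). It was 0.755 in females and 0.626 in males, and 0.548 without the 2 libraries farthest from the median of Mki67, those of animals 10 and 1. For Cdc20, r was 0.654 (permutation p = 0.00102, adjusted 0.0102) and rho 0.668 (permutation p = 0.00084, adjusted 0.0168), with 0.593 in females, 0.730 in males and 0.594 without animals 10 and 1. Top2a had r = 0.434 (permutation p = 0.0482, adjusted 0.238), with 0.832 in females and -0.06 in males; that difference was not tested. Kif11 had r = 0.445 (permutation p = 0.0225, adjusted 0.150), also higher in females (0.630) than in males (0.05). The genes least related to Mki67 were Ccne1 (r = -0.00056, permutation p = 0.998, adjusted 0.998) and Aurka (r = -0.07, permutation p = 0.766, adjusted 0.806). Of the 20 relations, 14 were positive and 2 passed. Without animals 13 to 16 none of the 20 passed over 20 libraries, with r at 0.685 for Rrm2 and 0.583 for Cdc20.

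**Figure D5:**
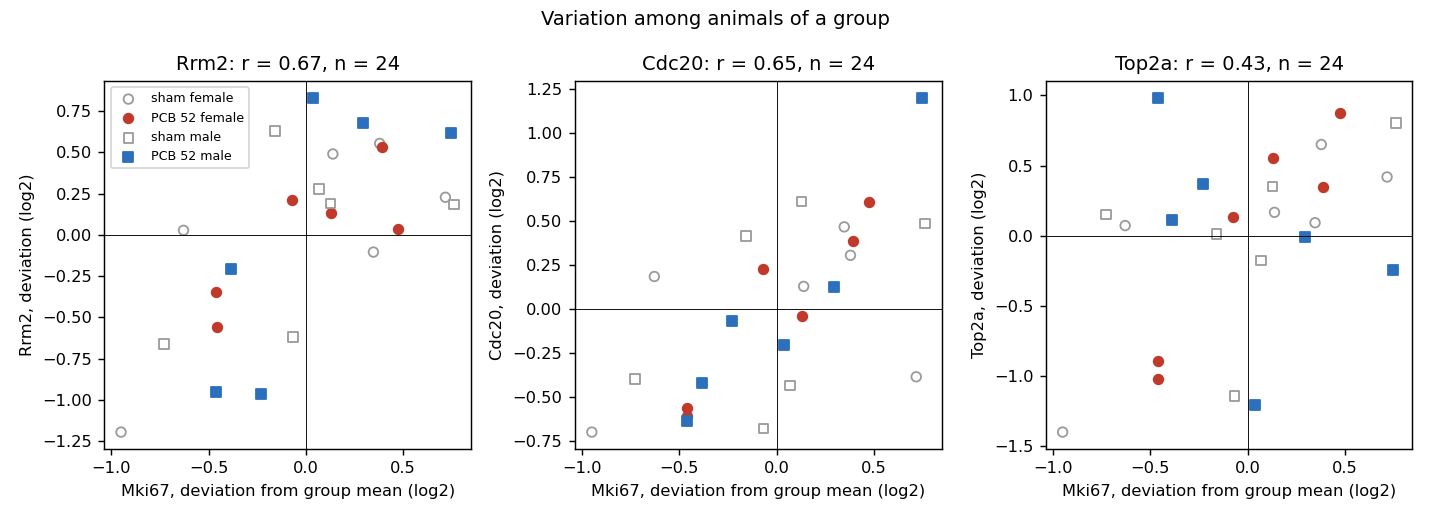
Deviation of Rrm2, Cdc20 and Top2a from their group mean against that of Mki67 in the 24 livers, both as log2 CPM, with open symbols for sham and filled symbols for PCB 52, circles for females and squares for males. Rrm2 (r = 0.67) and Cdc20 (r = 0.65) slope upward in both sexes; Top2a (r = 0.43) does so in females.

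The wider pathway was followed through 5 lists of other genes. Under exposure no gene of any list passed in either sex. Of the replication factors, 41 of 43 were measured and 32 tested in females and 30 in males, with medians of 0.12 and 0.05 on the log2 scale. The smallest p values in females belonged to Pole, a polymerase subunit (0.32, SE 0.14), and Orc3, of the origin recognition complex (0.40, SE 0.17), on the higher side, and to Mcm10 (-0.82, SE 0.30) and Gins3 (-0.74, SE 0.34), both helicase factors, on the lower side. In males they belonged to Gins2 (0.47, SE 0.20) and Orc4 (0.27, SE 0.16), and to Dnmt1 (-0.17, SE 0.10) and Fen1 (-0.23, SE 0.19). The mitosis list had 14 of its 42 genes tested in each sex, with Smc2 (0.17, SE 0.20) and Mad2l1 (0.24, SE 0.33) against Bub3 (-0.22, SE 0.13) and Cks1b (-0.20, SE 0.13) in females. In males they were Smc2 (0.22, SE 0.18) and Tubb5 (0.06, SE 0.08) against Stmn1 (-0.34, SE 0.24) and Kif20a (-0.24, SE 0.19).

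The cell cycle regulators had 29 of 37 genes tested in each sex. In females Rbl1, a pocket protein gene (0.63, SE 0.27), and Tfdp2 (0.19, SE 0.16) led the higher side, and Lin37, of the MuvB complex (-0.47, SE 0.18), and Cdkn1a, the p21 inhibitor gene (-0.83, SE 0.39), the lower. In males they were E2f1 (0.50, SE 0.31) and Rb1 (0.23, SE 0.15), and Cdkn2c (-0.43, SE 0.19) and Cdc25c (-0.48, SE 0.30). The 10 p53 targets tested had medians of -0.10 in females and -0.13 in males. Their leading genes in females were Fas (0.14, SE 0.12) and Zmat3 (0.16, SE 0.16), against Sesn2 (-0.47, SE 0.17) and Btg2 (-0.44, SE 0.20). In males they were Mdm2 (0.20, SE 0.12) and Ccng1 (0.15, SE 0.12), against Btg2 (-0.41, SE 0.21) and Bax (-0.18, SE 0.13). Of the hepatocyte growth signals, 8 were tested in females and 7 in males. Met (0.15, SE 0.09) and Igf1 (0.15, SE 0.13) led the higher side in females and Rspo3 (0.27, SE 0.21) and Tgfa (0.12, SE 0.12) in males. Igfbp1, the gene of an insulin-like growth factor binding protein, led the lower side in both (-0.68, SE 0.27, and -0.75, SE 0.39), followed by Tgfa in females (-0.09, SE 0.20). The difference in response and the average response also called 0 genes of these lists.

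Between the sexes, genes of all 5 lists passed, and many genes outside the lists did too. Of all genes tested, 10.7% were called higher and 9.62% lower in sham females, and 10.1% and 9.73% in exposed females. No list was tested against these shares. Of 33 replication factors tested, 5 were called in each exposure state. In sham females 4 were lower than in sham males, Hells (-2.12), Mcm10 (-1.0), Orc2 (-0.64) and Rpa1 (-0.50). Among those called in exposed females, Cdt1 (0.86) and Pole (0.50) were higher and Hells (-1.70) and Mcm10 (-1.47) lower. The mitosis list had Cenpa (0.72) and Tubb5 (0.31) higher and Stmn1 (-0.75) lower in sham females, of 14 tested. In exposed females Cenpa (0.75) and Tubb5 (0.24) were higher and Stmn1 (-0.66) and Cks1b (-0.53) lower. Regulators had 4 of 29 called in both states: Chek1, the checkpoint kinase gene, was higher in females (1.68 in sham and 1.74 in exposed animals), and Cdkn2c (-1.0 and -0.67), Rb1 (-0.56 and -0.63) and Rbl2 (-0.30 and -0.31) were lower. Fas was higher in females in both (1.53 and 1.56) and was the only called gene of 10 p53 targets. Of 8 growth signals, Igfbp1 was higher (1.94 and 2.01) and Egfr (-0.73 and -0.74) and Tgfa (-0.80 and -1.0) were lower in females.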

How the data were processed

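The authors deposited raw gene counts, 1 table a sex. The submitters' processing notes name FastQC, HISAT2 and rn6. The counter, its strand setting and its annotation are not given in the sources used here. The labels' protocols name poly(A) capture or rRNA removal. Symbols and promoters came from RefSeq (GRCr8), so rn6 coordinates were not used. CPM is counts per 1000000 library counts.

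Differential expression used edgeR 4.0.16 in R 4.3.3 (TMM, filterByExpr with minimum count 10 and minimum total 15, robust quasi-likelihood test, Benjamini-Hochberg over all genes tested, threshold 0.05). The exposure contrast of each sex used its 12 libraries, and the other 4 contrasts 1 fit of all 24 libraries. Alternatives were RLE factors, other filters, DESeq2 1.42.0, limma-voom (limma 3.58.1) with quality weights, a non-robust fit, all 24 libraries in 1 fit, a library axis covariate, a threshold of 0.10, no animals 13 to 16, and each library left out. Correlations used log2 CPM (prior count 2) with group means removed, two-sided permutation tests (100000 permutations within groups) and adjustment over the 20 relations. Fits and correlations were tested on simulated data. Replicates were separate animals, and their numbers do not pair them; floors cover counting error only, while the 95% intervals of log2 fold changes include the spread between animals.

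Every member is accounted for. Values are given in full for members with an unadjusted p under 0.05 in any of the 6 contrasts and for Mki67, Top2a, Cdk1, Pcna, Ccnd1 and Mcm7. Pathway genes are named where they pass, or, in the exposure contrast of each sex, as up to 2 with the smallest p in each direction; in the difference and the average response they are only counted. Of the pathway genes that passed, 1 is not reported here. Promoters were printed for members most correlated with Mki67 in each role where a stretch clear of other annotated genes was found. The members and lists were chosen with earlier results of these data known.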

Additional observations from a re-analysis of the deposited data

Results flagged for a closer look

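Among 60 groups of 6 values examined (15 members in 4 groups), 6 held a library set apart from the others by a gap of more than 0.625 of the whole range. For normally distributed values chance gives about 1 such group in 20. That rate was not established for CPM that rest on few counts, so 6 of 60 is not set against it. In sham males, animal 11 was highest for Kif11 (4.57 CPM, others 2.33 to 3.12) and for Mcm6 (4.57 CPM, others 1.84 to 2.46). Cdk1 reached 0.907 CPM in sham male 7 (others 0.286 to 0.492) and 2.45 CPM in exposed female 16 (others 0 to 0.893). Cdc20 stood at 2.37 CPM in exposed male 21 (others 0.520 to 1.04), and Mcm2 at 9.91 CPM in exposed female 20 (others 7.40 to 8.30). Without animal 11 no member was called between sham females and males (0 against 3). The same 3 calls were also lost without animal 5, 6 or 9, each left out alone, and these animals hold no flagged value.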

How the results depend on the processing

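No member was called for exposure in females, in males, in the difference of the responses or in their average under any alternative run, although DESeq2 called 13, 1, 0 and 80 genes in these contrasts. Between sham females and males the count of members called was 3. It was 6 at a threshold of 0.10, 1 without the low-count filter, 5 with limma-voom, and 0 to 4 with 1 library left out. Between exposed females and males it was 4. It was 7 at a threshold of 0.10 and 2 to 5 with 1 library left out; the lowest came without exposed female 14. The co-variation with Mki67 gave 2 members, and 0 without animals 13 to 16. The exposure value of Ccnd1 changed sign, to 0.0199 with the library axis as a covariate and -0.198 to 0.0699 with 1 library left out in females, and to 0.0361 without animals 13 to 16 in males (-0.43 to -0.02 with 1 left out). No paired analysis was possible because the replicate numbers only name libraries. The 11 members below the filter held as few as 66 counts over 24 libraries, which limits the precision of their values.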
